A study of Rattus norvegicus with 4 samples.

Results

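The natriuretic peptide system was described through 8 genes out of the 32883 in the deposited count table. They were chosen by name, with earlier results of these data known. They are the peptide genes Nppa, Nppb and Nppc, the receptor genes Npr1, Npr2 and Npr3, and the genes of the processing enzymes, Corin and Furin. Each name belonged to 1 gene identifier. Transcripts were measured by strand-specific, rRNA-depleted RNA-seq in neonatal rat ventricular cardiomyocytes, primary heart muscle cells in culture. The series asks how phenylephrine (PE), an adrenergic agonist used to induce hypertrophy of such cells, alters their transcripts. There were 2 libraries of cells treated with 20 µM PE for 24 h and 2 libraries of untreated control cells. Every culture came from Sprague-Dawley rat ventricles at postnatal day 2 and was grown with fetal bovine serum. A plating step served to remove early-attaching non-cardiomyocytes. Markers of other cell types were still measured and are given below. Whether the replicates of a group were separate cultures is not given in the labels. The p-values therefore rest on differences between these libraries, which could be technical.

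Atrial and B-type natriuretic peptide (ANP and BNP, from Nppa and Nppb) are heart hormones that lower blood volume and pressure and restrain the growth of heart muscle. Both are made by heart muscle cells, and both genes are reactivated in hypertrophied ventricle. Corin, a membrane protease of heart muscle, cuts the ANP precursor, and furin, a convertase of the secretory pathway, cuts the precursors of BNP and of C-type natriuretic peptide (CNP, from Nppc). The receptor encoded by Npr1 makes cyclic GMP when ANP or BNP binds it, and that encoded by Npr2 when CNP does. The receptor encoded by Npr3 removes all of these peptides from circulation.

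Nppa and Nppb lie next to each other in the gene order of RefSeq's GRCr8 assembly, and both rose with PE. The stretches before their transcription starts are shown because these members moved together. RefSeq's promoter table held 6 of the 8 genes and had no entry for Npr2 and Furin. The lines give the 250 bases before the start on the gene's strand, from build GRCr8, at chr5:163711934-163712183 (+) for Nppa and chr5:163699758-163700007 (+) for Nppb. Capitals mark matches to the motifs searched.
Nppa: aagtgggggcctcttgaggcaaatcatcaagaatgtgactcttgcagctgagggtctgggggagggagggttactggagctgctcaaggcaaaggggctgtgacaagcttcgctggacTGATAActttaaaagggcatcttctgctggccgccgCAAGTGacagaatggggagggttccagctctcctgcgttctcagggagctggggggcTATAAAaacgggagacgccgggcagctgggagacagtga
Nppb: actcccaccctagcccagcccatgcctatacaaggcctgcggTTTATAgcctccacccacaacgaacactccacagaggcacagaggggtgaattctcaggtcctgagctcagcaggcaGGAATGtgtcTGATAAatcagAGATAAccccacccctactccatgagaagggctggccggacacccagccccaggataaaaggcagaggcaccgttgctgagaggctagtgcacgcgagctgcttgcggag

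Both strands were searched for the GATA motif (TGATAA or AGATAA), the M-CAT motif (CATTCC), the NK2 motif (CAAGTG), the T-box motif (AGGTGTG), the TATA motif (TATAAA), the AP-1 motif (TGANTCA) and the CArG box. GATA factors, NK2 factors and T-box factors are families of heart transcription factors, TEAD factors bind M-CAT, and serum response factor binds the CArG box. The Nppa stretch held a GATA match beginning 132 bases before the start, an NK2 match beginning at 96 and a TATA match beginning at 39. The Nppb stretch held GATA matches beginning at 121 and 110 bases before the start, an M-CAT match on the opposite strand beginning at 131 and a TATA match on the opposite strand beginning at 208. None of these matches overlapped another, although the NK2 letters also have the form of an E-box, CANNTG. Neither stretch held a T-box, AP-1 or CArG match. The CArG pattern searched was CCWWWWWWGG, with W for A or T. Only exact matches were counted, so the near match ctttaaaagg in Nppa was not marked. Over 33469 RefSeq promoter stretches of the same length, 16.9% held the GATA motif, 12.1% M-CAT, 11.7% NK2, 4.8% T-box, 12.9% TATA, 6.34% AP-1 and 1.5% CArG. At least 2 GATA matches, as in Nppb, stood in 2.6%. Of the other 4 genes with an entry, Nppc held a TATA match, and Npr1, Npr3 and Corin held none of the motifs. A match is a description of letters and not a bound site.

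**Figure D1:**
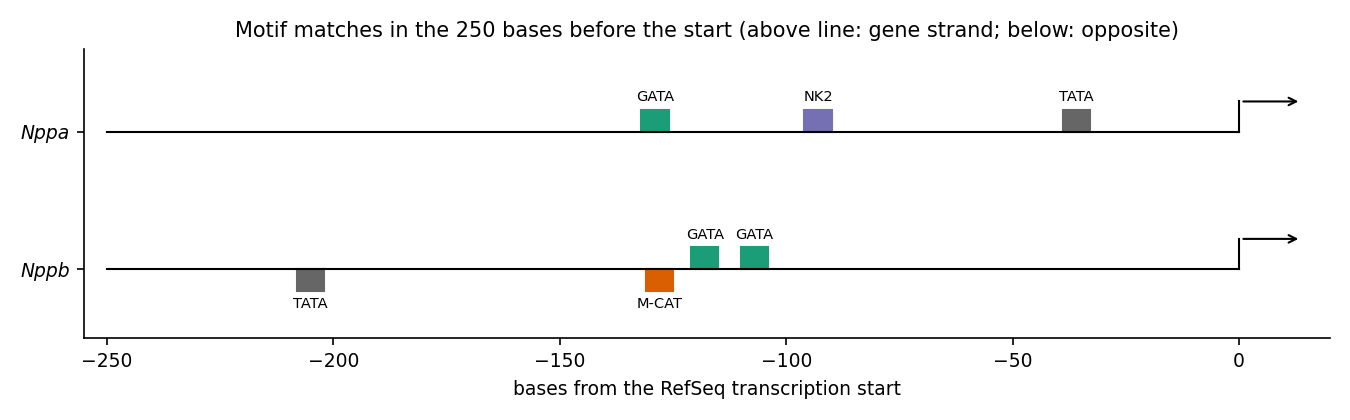
Motif matches in the 250 bases before the RefSeq transcription starts of Nppa (above) and Nppb (below), by distance in bases from the start, with boxes above the line for the gene's strand and below it for the opposite strand. Nppb has 2 GATA matches beside an M-CAT match, and Nppa has 1 GATA match upstream of an NK2 match.

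Total counts ranged from 48075810 to 56948370 in the PE libraries and from 45637881 to 51917449 in the control libraries. Mitochondrial-genome transcripts took 4.61% and 4.76% of counts in the PE libraries, against 6.19% and 11.7% in control replicates 1 and 2. The chi-square between the libraries of a group, divided by its degrees of freedom, was 23.4 for PE and 161 for control. Levels below are CPM, counts scaled to the library size after adjustment by trimmed mean of M-values (TMM), fold changes are PE over control, and a change means an adjusted p under 0.05 in edgeR's quasi-likelihood test over 15257 tested genes. The defining heart muscle genes were abundant in both groups. Of 6 measured cardiomyocyte markers, 0 changed in edgeR, 3 had an unadjusted p under 0.05, and DESeq2 called 1 higher and 1 lower (16% of its genes with an adjusted p were called). Their summed level was 11135 and 11881 CPM in PE libraries and 11780 and 13490 CPM in control libraries.

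Of the 8 genes, 2 rose (Nppa and Nppb), 2 fell (Nppc and Corin) and 4 did not pass (the 3 receptor genes and Furin). Of all tested genes, 15.7% changed, with 7.39% higher and 8.3% lower. All 8 genes passed the filter on low counts, but Nppc passed only through its control libraries and so had to differ between the groups. The ranges of the groups did not overlap for any of the 8 genes, a separation that 56.7% of all tested genes also showed. The authors' deposited DESeq2 table, in which 16.8% of genes with an adjusted p are under 0.05, calls the same 4 genes. Its adjusted p was 2.56e-134 for Nppa, 9.13e-32 for Nppb, 0.0011 for Nppc and 5.74e-09 for Corin. For the 8 genes its log2 fold changes equal those of DESeq2 run here on the same libraries. These calls are therefore not independent support, and that of Nppc rests on 0 counts in both PE libraries.

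**Figure D2:**
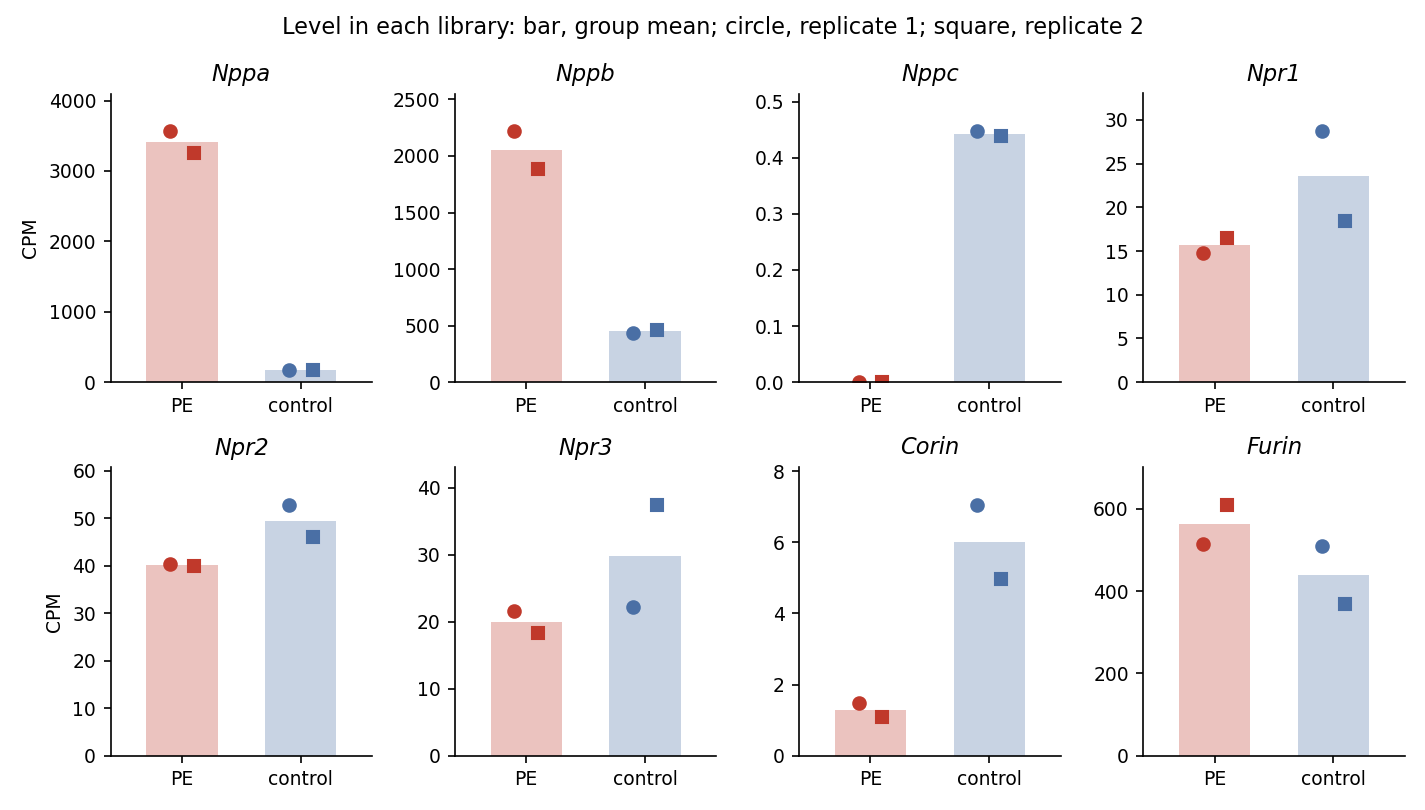
Level (CPM, linear axis from 0) of each gene in the PE and control libraries, with bars for the group means, circles for replicate 1 and squares for replicate 2. Nppa and Nppb are high in both PE libraries, Nppc and Corin are low there, and the control points of Npr1, Npr3 and Furin lie far apart.

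Nppa (ENSRNOG00000008176), the ANP gene, had 3565 and 3250 CPM in PE replicates 1 and 2, against 172 CPM in each control library. Both PE libraries were far above both controls, and the control values were nearly identical. The fold change was 19.8, with a 95% interval of 14.7 to 26.8 (log2 fold change 4.31 ± 0.19 SE, adjusted p = 2.07e-06, n = 2 each). Its p ranked 5 among the 15257 tested genes. The 3 genes with the most similar pattern were Syt12, Wfdc1 and Fbxl2, at distances of 0.42, 0.48 and 0.57. Distance here is Euclidean, over the 4 libraries, between log2 CPM profiles centred on their own means.

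Nppb (ENSRNOG00000008141), the BNP gene, had 2219 and 1887 CPM in the PE libraries, against 434 and 465 CPM in the controls. Again both PE libraries stood above both controls. The fold change was 4.57, with an interval of 3.45 to 6.05 (log2 fold change 2.19 ± 0.18, adjusted p = 4.61e-05). The nearest patterns were those of Csrp3, Cdkn2b and Mfsd4a, at distances of 0.093, 0.11 and 0.13. The distances were smaller than those around Nppa. Csrp3, muscle LIM protein, a Z-disc protein of striated muscle, had 360 and 332 CPM in the PE libraries and 75 and 76.9 CPM in the controls.

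The ratio of Nppa to Nppb counts was higher with PE. Nppa had 1.61 and 1.72 counts for each Nppb count in the PE libraries, against 0.396 and 0.37 in the controls. These are ratios of counts, not corrected for transcript length, so only their change between groups can be read. The ratio was 4.35-fold higher with PE, a log2 difference of 2.12 that ranged from 2.07 to 2.17 when any library was left out. With 2 libraries a group the smallest 2-sided exact permutation p is 0.333, so this difference cannot pass a test of its own. Nppa and Nppb together took 0.57% and 0.504% of all counts in PE replicates 1 and 2 (Wilson 95% intervals 0.568% to 0.572% and 0.502% to 0.506%). They took 0.0626% and 0.0636% in control replicates 1 and 2 (intervals 0.0619% to 0.0633% and 0.0629% to 0.0644%). These intervals cover counting error only.

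Nppc (ENSRNOG00000018854), the gene of CNP, a peptide known chiefly from endothelium and cartilage, differed in the opposite direction, on few counts. It had 0 counts in both PE libraries, against 24 and 20 counts in control replicates 1 and 2, or 0.447 and 0.439 CPM. With 3 counts over both PE libraries assumed as an upper limit, or 0.029 CPM, Nppc was 15.3-fold lower or more with PE (adjusted p = 0.00348). This bound allows for counting error in the PE libraries only. It takes the control level, from 44 counts, as exact and leaves out variation between libraries. Because Nppc passed the filter only through its controls, it had to differ, and its p adds no support. The fitted fold change of a gene at 0 rests on the prior count and is not given. The genes nearest to it in pattern, B3gat1, Tnn and Masp1, had log2 fold changes of -3.53, -3.32 and -3.26. Those distances also depend on the prior count.

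Of 7 measured endothelial markers, 5 fell and 2 did not pass, where 8.3% of all tested genes fell. DESeq2 called 4 of the 7 lower (16% of its genes with an adjusted p were called). With the replicate number as a block in edgeR, 3 were lower, and 1964 of 15257 genes changed. None of the 7 was at 0, and their summed level was 132 and 136 CPM in PE libraries and 220 and 218 CPM in control libraries. Emcn and Cdh5, which encode endothelial surface proteins, had log2 fold changes of -1.54 ± 0.27 and -0.95 ± 0.16. The markers that did not pass, Tek and Egfl7, had positive values of 0.24 ± 0.17 and 0.06 ± 0.21. Their part in the lower Nppc was not tested, and in bulk RNA fewer cells of a type and less RNA per cell cannot be told apart. With PE replicate 1 or 2 left out, Emcn was the 1 endothelial marker still called.

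**Figure D3:**
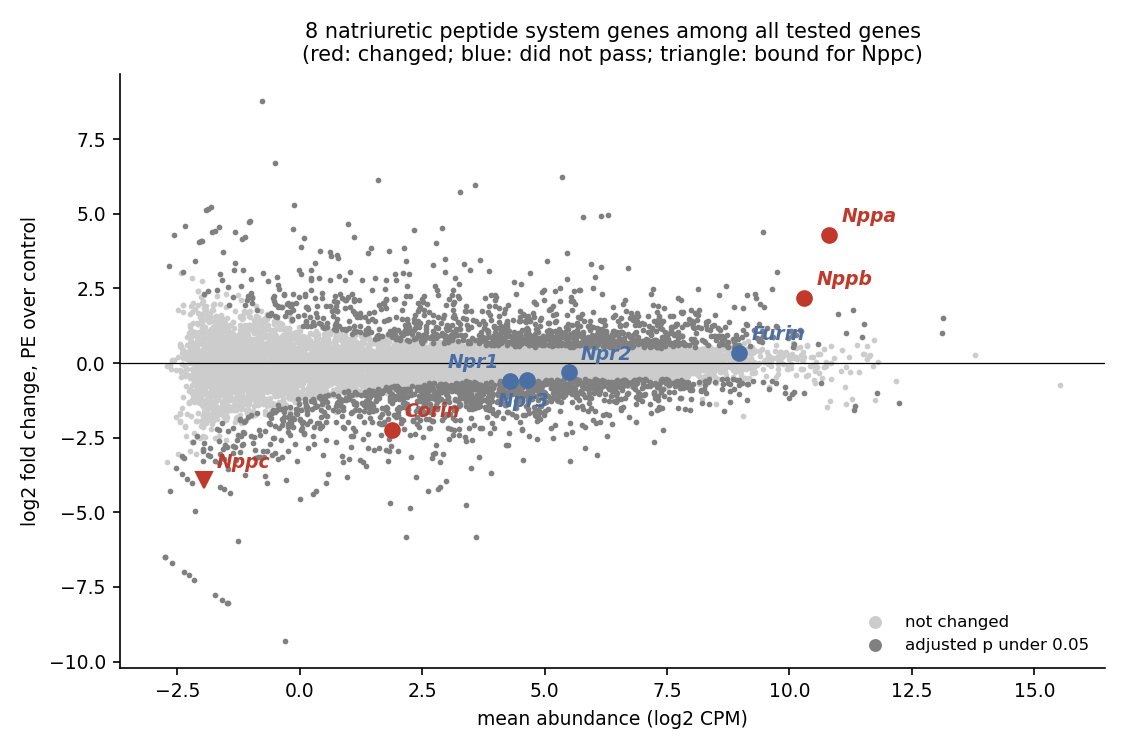
Log2 fold change, PE over control, against mean abundance (log2 CPM) for all tested genes, light gray for those that did not pass and dark gray for those that changed. Among the 8 genes, drawn large, Nppa at 4.31 and Nppb at 2.19 stand high at the end with the most counts and Corin at -2.23 low, and the Nppc triangle at -3.93 is the bound computed from 3 counts. The line of gray points at the lower left holds genes whose fitted values, like that of Nppc, depend on the prior count.

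The receptor genes gave no change that passed. Npr1 (ENSRNOG00000014684), encoding the ANP and BNP receptor, had 14.8 and 16.5 CPM in PE libraries, against 28.7 and 18.4 CPM in control replicates 1 and 2. PE replicate 2 and control replicate 2 were close to each other, and control replicate 1 stood apart. Its log2 fold change was -0.59 (interval -1.10 to -0.09, adjusted p = 0.109). It was -0.23 without control replicate 1 (adjusted p = 0.352) and -0.88 without control replicate 2, where it passed (adjusted p = 2.97e-06).

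Npr3 (ENSRNOG00000019184), encoding the clearance receptor, showed the mirror image in the controls. It had 21.7 and 18.3 CPM in PE libraries, against 22.2 and 37.5 CPM in control replicates 1 and 2. Here control replicate 2 stood apart, and control replicate 1 nearly met PE replicate 1. The log2 fold change was -0.58 (interval -1.11 to -0.04, adjusted p = 0.147), -0.90 without control replicate 1 (adjusted p = 5.49e-07) and -0.15 without control replicate 2 (adjusted p = 0.563). With 1 control library left, the spread comes from the PE pair alone, so these calls add no support. Both receptor genes passed when no filter on low counts was applied (adjusted p = 0.0304 for Npr1 and 0.0321 for Npr3).

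Counts of Npr1 per count of Npr3, a receptor that signals against the one that clears, were 0.683 and 0.898 in PE libraries and 1.29 and 0.491 in control libraries. The PE values lay between the control values. Npr2 (ENSRNOG00000015991), encoding the CNP receptor, had 40.4 and 40 CPM in PE libraries, against 52.8 and 46.1 CPM in controls. Its libraries agreed more closely than those of the other receptors, with a log2 fold change of -0.30 (interval -0.66 to 0.06, adjusted p = 0.265). It passed only without control replicate 2, at -0.39 (adjusted p = 0.0444).

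Corin (ENSRNOG00000002302), the ANP-processing protease, fell while its substrate's gene rose. It had 83 and 51 counts in PE replicates 1 and 2, or 1.48 and 1.08 CPM, against 379 and 226 counts in control replicates 1 and 2, or 7.06 and 4.96 CPM. The higher PE value was well under the lower control value. The fold change was 0.214, or 4.68-fold lower with PE (log2 fold change -2.23 ± 0.28, interval -2.85 to -1.60, adjusted p = 0.000539). It ranged from -2.47 to -1.94 with any library left out and passed each time. The nearest patterns were those of Kcnn3, Gamt and Acss1, at distances of 0.17, 0.18 and 0.18. Reads of overlapping genes may enter the Corin count. In RefSeq's GRCr8 another protein-coding gene and a pseudogene overlap it, and no source used here gives the strand setting of the counting.

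Furin (ENSRNOG00000011352), the convertase that cuts the BNP precursor, did not follow Corin. It had 515 and 610 CPM in PE libraries, against 510 and 370 CPM in controls, so PE replicate 1 and control replicate 1 were nearly equal. Its log2 fold change was 0.35 (interval -0.08 to 0.79, adjusted p = 0.273). It was 0.61 without control replicate 1, where it passed (adjusted p = 0.000183), and 0.14 without control replicate 2 (adjusted p = 0.47). Counts of Corin per count of Furin were 0.00287 and 0.00177 in PE libraries and 0.0138 and 0.0134 in control libraries, a 6.04-fold lower ratio with PE. Furin too is overlapped in RefSeq by a long noncoding RNA gene, as is Npr1.

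**Figure D4:**
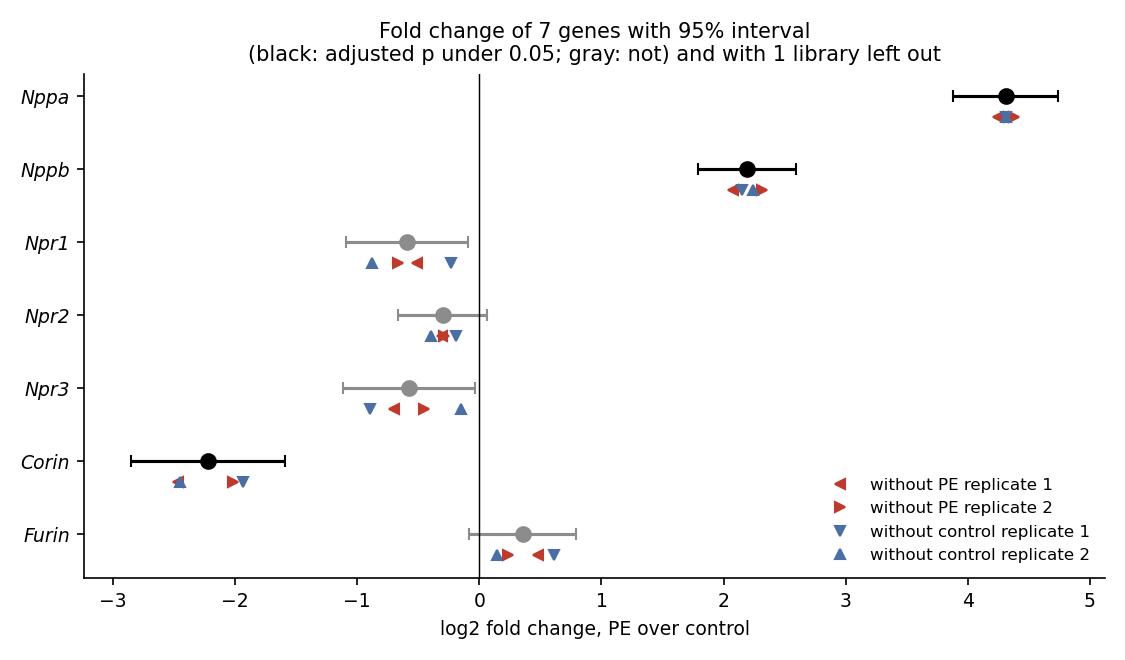
Log2 fold change, PE over control, of 7 genes (Nppc, at 0 in PE, left out) with 95% intervals as bars, and beneath each the value with 1 library left out, red for PE and blue for control libraries. Nppa, Nppb and Corin keep their place whichever library is left out, while Npr1, Npr3 and Furin shift with the control library.

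Genes that make, break down, sense or transmit the peptide signal were taken from 7 lists. Outside the 8 genes, 66 were tested, of which 5 rose, 5 fell and 56 did not pass. That is 15.2%, near the 15.7% of all tested genes. Their median log2 fold change was -0.20, against -0.01 over all tested genes. Only 3 of the 10 calls, those of Rgs2, Myocd and Dpp4, held with any library left out.

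Among 6 tested genes of other convertases and secretory granule proteins, 1 fell and 5 did not pass. The member that fell was Pcsk5, a convertase related to furin, with 35.3 and 32.6 CPM in PE libraries and 56.2 and 55.8 CPM in controls (log2 fold change -0.72 ± 0.16, adjusted p = 0.0124). The call was lost when PE replicate 1 or 2 was left out (adjusted p = 0.218 and 0.337). Among 4 tested genes of peptide breakdown, 1 fell. This was Dpp4, a membrane peptidase that trims BNP among other peptides, with 4.26 and 3.86 CPM in PE libraries and 12.2 and 18.3 CPM in controls (log2 fold change -1.91 ± 0.24, adjusted p = 0.000501). Mme, which encodes neprilysin, the main peptidase that degrades ANP, had 49.7 and 33.8 CPM in PE libraries, against 41.4 and 63.4 CPM in controls, so the groups overlapped (adjusted p = 0.426). Ostn, the gene of a peptide ligand of the clearance receptor, had 0 counts in all 4 libraries.

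The list of cGMP kinases, phosphodiesterases and export had 11 tested genes, all of them phosphodiesterase or export genes. Of these, 0 passed in edgeR and 0 in DESeq2, and 1 had an unadjusted p under 0.05. No cGMP kinase gene was tested in edgeR. Prkg1, the main cGMP kinase gene of heart muscle, matched no name in the table and was not analysed here. Prkg2, the other kinase gene listed, was dropped by the filter, with 8 and 2 counts in PE replicates 1 and 2 and 4 and 9 in control replicates 1 and 2. The tested gene with the most counts, Pde3a, was at 0.02 ± 0.16 on the log2 scale. Pde5a and Pde9a, phosphodiesterases that break down cyclic GMP, were at 0.10 ± 0.20 and 0.00 ± 0.22 on the log2 scale. Of 3 tested subunits of soluble guanylyl cyclase, the enzyme that answers nitric oxide, 1 rose. This was Gucy1b1 (log2 fold change 0.70 ± 0.21, adjusted p = 0.0481). Gucy1a2 and Gucy1a1 went the other way, at -0.76 ± 0.25 and -0.45 ± 0.17, and did not pass (adjusted p = 0.0717 and 0.113). All 3 had an unadjusted p under 0.05. The Gucy1b1 call was lost with PE replicate 1 or 2 left out. It was also lost with upper-quartile scaling, with library sizes alone and with a minimum count of 50.

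Of 9 cGMP kinase substrates, 2 rose, 1 fell and 6 did not pass. Rgs2, a regulator that shuts off Gq signals, had 94.2 and 68.8 CPM in PE libraries and 14.5 and 16.4 CPM in controls (log2 fold change 2.4 ± 0.20, adjusted p = 4.94e-05). Rgs4, a regulator of the same family, rose by 0.86 ± 0.25 (adjusted p = 0.0434). Mrvi1, the kinase's partner at the calcium store, fell by 0.87 ± 0.25 on the log2 scale (adjusted p = 0.0434). Without PE replicate 1 or PE replicate 2, Rgs4 did not pass (adjusted p = 0.23 and 0.0522), nor did Mrvi1 (adjusted p = 0.358 and 0.0523), and Mrvi1 also failed without control replicate 1 (adjusted p = 0.0565).

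Of 25 tested transcription regulators known to act on the natriuretic peptide genes, 1 rose, 2 fell and 22 did not pass. Myocd, encoding myocardin, a heart and smooth muscle cofactor of serum response factor, had 275 and 313 CPM in PE libraries and 123 and 116 CPM in controls (log2 fold change 1.30 ± 0.16, adjusted p = 0.00049). Hdac9, a class II histone deacetylase gene, fell by 0.85 ± 0.21 (adjusted p = 0.0192) and Zfpm2, a GATA4 cofactor, fell by 0.60 ± 0.16 on the log2 scale (adjusted p = 0.0289). Neither passed with PE replicate 1 left out (adjusted p = 0.287 and 0.493), nor with PE replicate 2 left out (adjusted p = 0.071 and 0.374). Gata4, Nkx2-5 and Tead1, which encode heart factors of the GATA, NK2 and TEAD families, did not pass. They were at 0.34 ± 0.17, -0.28 ± 0.17 and -0.25 ± 0.15 on the log2 scale (adjusted p = 0.206, 0.316 and 0.33). Srf, encoding serum response factor, was at -0.14 ± 0.19 (adjusted p = 0.668). Neither stretch shown held an exact match to its CArG box, and near matches were not counted.

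Of 8 tested genes around Nppa and Nppb on their chromosome, 1 rose and 7 did not pass. The riser was Clcn6, a chloride transporter gene and the next protein-coding gene after Nppa in RefSeq's GRCr8 order. It had 88.2 and 89.7 CPM in PE libraries and 61.8 and 56.6 CPM in controls (log2 fold change 0.59 ± 0.16, adjusted p = 0.031). Its call did not survive the omission of PE replicate 1 or 2 (adjusted p = 0.391 and 0.408). Plod1, on the side of Nppb, was at 0.09 ± 0.20 on the log2 scale. In the GRCr8 order 2510039O18Rikl stands between Plod1 and Nppb. That gene and C5h1orf167, on the side of Nppa, were not in the list and were not examined.

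**Figure D5:**
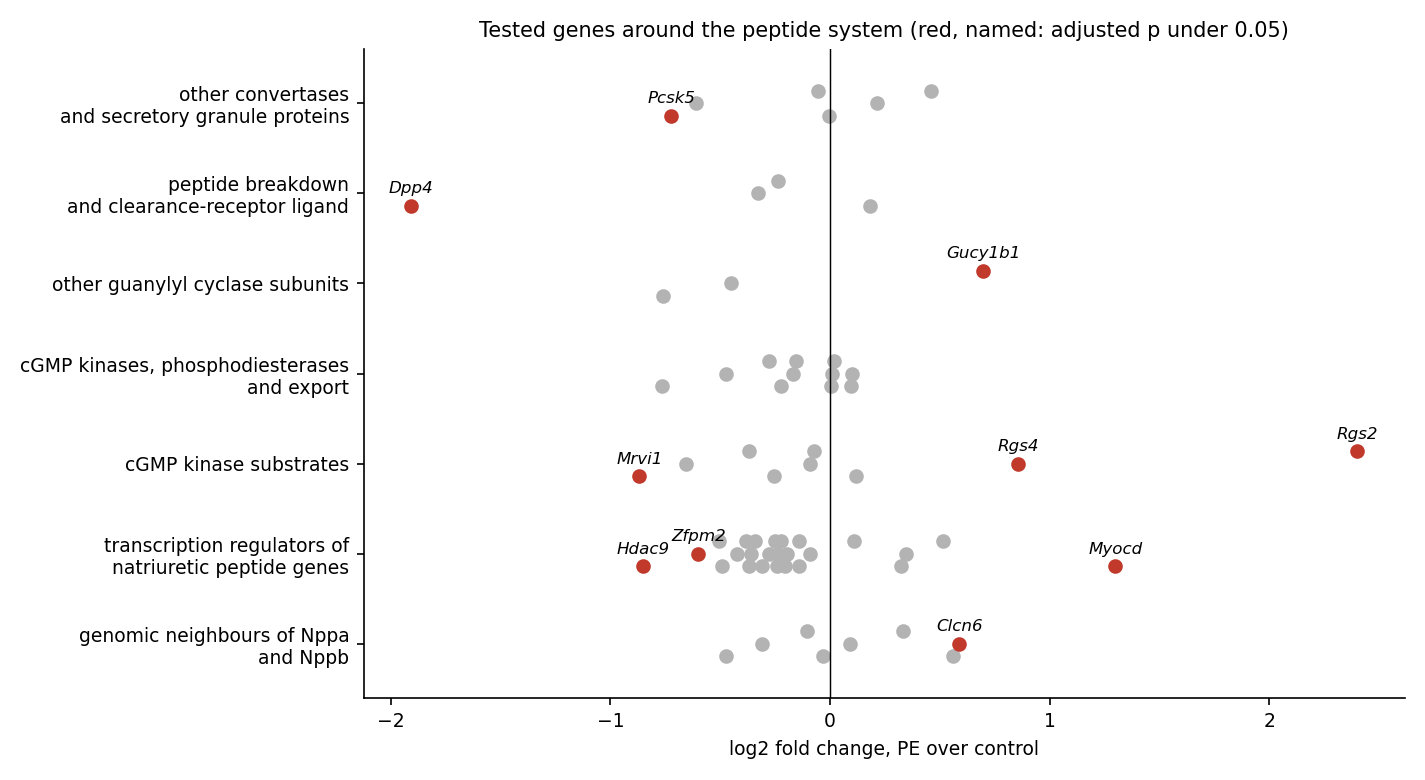
Log2 fold change, PE over control, of each tested gene in 7 lists around the peptide system, red and named where the adjusted p was under 0.05 and gray where it was not. Rgs2 at 2.4 and Myocd at 1.30 lie highest and Dpp4 at -1.91 lowest, and most other genes lie near 0.

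Nppa is also a marker of atrial heart muscle. Of 7 tested atrial markers, 1 rose and 6 did not pass, and their summed level was 125 and 137 CPM in PE libraries and 103 and 88.6 CPM in controls. The member that rose was Myl4, the atrial essential light chain, by 1.24 ± 0.18 (adjusted p = 0.00122). Myl7, the atrial regulatory light chain, was at -0.46 ± 0.17. Bmp10, with 33 and 51 counts in PE libraries and 19 and 12 in controls, was at 1.41 ± 0.50 (adjusted p = 0.0875). Of the 7 atrial markers, 3 had positive and 4 had negative log2 fold changes. Of 4 ventricular markers, Myl2 and Myl3, ventricular myosin light chains, rose and Irx4, a ventricular transcription factor gene, fell by 1.62 ± 0.16 on the log2 scale. The call of Myl2 was lost with PE replicate 1 or 2 left out (adjusted p = 0.208 and 0.288), and that of Myl3 with PE replicate 2 left out (adjusted p = 0.127).

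Markers of other cell types were measured in the same libraries. Summed fibroblast markers were at 10082 and 9994 CPM in PE libraries and 18165 and 16275 CPM in controls, with 2 of 7 lower, and Col1a2 had at most 5 counts in any library. Col3a1, a collagen gene and 1 of the 2 that fell, had 2603 and 2843 CPM in PE libraries and 7841 and 6076 CPM in controls. Dcn, Lum and Tcf21 had positive log2 fold changes of 0.50, 0.11 and 0.04 that did not pass. Macrophage markers summed to 103 and 108 CPM in PE libraries and 160 and 183 CPM in controls, with 3 of 8 lower. Mesothelial and epicardial markers summed to 99.8 and 110 CPM in PE libraries and 202 and 168 CPM in controls, with 3 of 6 lower and 1 higher. Smooth muscle and pericyte markers summed to 743 and 893 CPM in PE libraries and 760 and 571 CPM in controls, with 1 of 6 higher. That marker was Cspg4, with 334 and 444 CPM in PE libraries and 206 and 131 CPM in controls, and the other 5 had negative log2 fold changes that did not pass. Of all tested genes, 8.3% were lower. DESeq2 called 4 fibroblast, 3 macrophage and 3 mesothelial markers lower (16% of its genes with an adjusted p were called). With the replicate number as a block in edgeR, 2, 1 and 2 were lower, and 1964 of 15257 genes changed. The macrophage calls were lost and the mesothelial calls became fewer when either PE library was left out. Fewer of all genes passed there too. More fibroblast and macrophage markers, and more of all genes, passed when either control library was left out. None of these lists had a marker at 0 in every library. Whether these differences bear on Dpp4, Npr1, Npr3 or Corin, which are also expressed outside heart muscle in some tissues, was not tested.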

How the data were processed

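One deposited table holds the authors' raw counts per gene and library. Per the submitters' processing notes, the build was Rnor_6.0 and the tools were featureCounts 1.6.4, STAR 2.4.2a and cutadapt 2.0; roles, annotation release and strand setting: not given in the sources used here. The other deposited table gives gene names and, per the file headers, the authors' normalized mean signal, log2 fold change with its standard error, test score, p-value and adjusted p-value per gene.

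Counts were fitted with edgeR 4.0.16 (limma 3.58.1, R 4.3.3): TMM factors, default filter (minimum count 10, minimum total 15), quasi-likelihood F test, Benjamini-Hochberg adjustment over all 15257 tested genes. The fit had 2 residual and 8.1 prior degrees of freedom. It was tested on simulated data. Standard errors are the absolute log2 fold change divided by the root of F. DESeq2 1.42.0 was an alternative. The 8 genes and the lists were chosen with earlier results of these data known. Named genes were the 8 genes, changed list members (at most 4 a list, or the most abundant where none changed) and, for each of the 8 that changed, the 3 nearest profiles among 11101 named genes whose log2 CPM averaged 1 or more. Other list genes given beside them were chosen after their values were seen. Alternatives changed the scaling, the filter, the tool, the genes or the libraries. Promoter sequences are RefSeq's, from build GRCr8.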

Additional observations from a re-analysis of the deposited data

How the results depend on the processing

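Nppa, Nppb and Corin kept their direction and passed under each of the 12 alternatives. Nppc did so under the 11 that tested it. Where a filter was applied, Nppc passed it only through control libraries and so had to differ, and those calls add no support. A minimum count of 50 dropped Nppc, and the number of changed genes among the 8 ranged from 3 to 6 over the alternatives. Without a filter on low counts, Npr1 at -0.59 and Npr3 at -0.58 on the log2 scale passed. With 1 library left out, log2 fold changes ranged from -0.88 to -0.23 for Npr1, from -0.39 to -0.19 for Npr2, from -0.90 to -0.15 for Npr3 and from 0.14 to 0.61 for Furin, with calls only where a control library was missing. Over the same omissions the number of changed genes ranged from 1205 to 4755, against 2393 with all libraries, and that of changed pathway genes from 3 to 24, against 10. A lone library is assumed there to vary like the remaining pair.

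Same-numbered PE and control libraries deviated from their group means with a correlation of -0.45, and the labels do not say that a number marks a shared culture. With the replicate block, 1964 genes changed, 4 of the 8 and 6 of the pathway genes. With crossed numbers as the block, chosen after seeing the data, the counts were 4677, 6 and 24. Depth limits Nppc most, at 24 counts or fewer in any library, and Corin next.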
